A study of Homo sapiens with 54 samples.

Results

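The genes described here carry the cyclic AMP (cAMP) signal of striatal medium spiny neurons (MSNs). They are 10 in number of the 60676 genes listed for each library, and they were chosen by name as the rows of PPP1R1B, GNAL, ADCY5, ADCY1, PDE10A, PDE1B, PDE4B, PDE4D, PRKAR2B and ARPP21. All 10 were found once in every library, and all 10 passed the filter on low counts in each of the 4 experiments. In the coordinates of the files (GRCh38), PPP1R1B lies at chr17:39626740-39636626 (plus strand), ARPP21 at chr3:35638945-35794496 (plus), ADCY1 at chr7:45574140-45723116 (plus), ADCY5 at chr3:123282296-123449758 (minus), PDE4B at chr1:65792514-66374579 (plus) and PDE4D at chr5:58969038-60522120 (minus). All are protein-coding genes, and reads were counted over whole genes. Levels are given as TPM, the exon reads per base of exon on a scale with equal totals in all libraries.

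In MSNs, D1-like dopamine receptors raise and D2-like receptors lower the production of cAMP. The stimulatory G protein of the striatum is built on Gαolf (GNAL), which acts mainly on adenylyl cyclase 5 (ADCY5). cAMP activates protein kinase A (PKA), of which PRKAR2B is a regulatory subunit, and phosphodiesterases (PDEs) break cAMP down. PKA phosphorylates DARPP-32 (PPP1R1B), which then inhibits protein phosphatase 1, and also ARPP-21 (ARPP21), a regulator of calmodulin signaling.

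RNA-seq of hMSN-like cells, made with activin A from H9, a human embryonic stem cell line, gave 53 libraries in 18 groups. All cultures stem from 1 line, and the labels name no transgene or deletion. In a pair of dose experiments, 1 mM or 1 µM dopamine was given once (Acute, DIV45) or daily for 5 days (Chronic, DIV50), RNA was taken either 1 h or 24 h later, and each dose had its own PBS group. In the time course, 1 mM dopamine was given on 2, 3, 4 or 5 days, RNA was taken 1 h after the last dose, and the control was the ascorbic acid vehicle (AA). In the agonist experiment, the D1-like receptor agonist SKF82958 (50 µM) or the D2-like receptor agonist quinpirole (50 µM) was compared with water. Groups held 3 libraries, except 5 Day with 2, and nothing in the labels says that they came from separate differentiations, so p-values measure the spread between these libraries. Acute and chronic dosing also differ in the age of the culture, and the experiments differ in their levels, so dose and experiment cannot be told apart. Each PBS group served both acute and chronic dosing, and the treatment labels do not give its culture age. The study's methods give dopamine in ascorbic acid, and PBS is named without it. Against PBS, the vehicle and, for acute or chronic dosing, culture age cannot be told apart from dopamine.

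Libraries held 5755919 to 27702963 exon reads, except replicate 1 of quinpirole with 137051, where 96.7% of the reads on genes were in introns. PPP1R1B, ADCY5 and PRKAR2B had 0 exon reads there, so agonist results are given with and without this library. Replicate 1 of 1 mM Acute 24 h also stood apart, with a summed level of 10 immediate early genes of 1327 TPM (207 and 220 TPM in the other libraries of the group) and of 8 pan-neuronal markers of 1925 TPM (3223 and 3455 TPM). Of 16 MSN markers, those of the dopamine receptors and opioid peptides were low, with a median over the 12 control libraries of 1.61 TPM for DRD1, 4.26 for DRD2, 2.29 for PENK and 0.217 for PDYN. Other markers on the list were higher, with 56.1 TPM for BCL11B, 36.4 for MEIS2, 15.6 for GAD1 and 9.55 for TAC1, beside 742 TPM for NEUROD6 and 140 TPM for TBR1, markers of cortical glutamatergic neurons. The 8 markers of progenitors and cycling cells had control medians from 51.2 TPM (HES5) to 1315 TPM (VIM), with 559 TPM for SOX2. Medians ran from 1.86 TPM (ALDH1L1) to 106 TPM (GJA1) for astrocyte markers. For mesenchymal and fibroblast markers they ran from 1.64 TPM (TWIST1) to 55.4 TPM (COL3A1). Which cells gave the reads of the 10 genes was not tested. In bulk RNA, fewer cells of a type and less RNA per cell cannot be told apart.

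All 10 genes were expressed in the control libraries. PRKAR2B was the highest, with a median of 103 TPM over the 12 control libraries (66.9 TPM or more in every library but replicate 1 of quinpirole), and ADCY1, the calcium- and calmodulin-stimulated cyclase, followed with 62.7 TPM. GNAL had 37.3 TPM, ADCY5 29.3 TPM, PDE4B 24.8 TPM and PPP1R1B 22.7 TPM. ARPP21 had 14 TPM, PDE4D 11.7 TPM, PDE10A, the PDE most typical of MSNs, 9.48 TPM, and the calmodulin-dependent PDE1B 7.62 TPM. The order depended on the control group. ADCY1 and PRKAR2B overlapped in water, PDE4B and PPP1R1B overlapped in 1 mM PBS, and PDE4B and ADCY5 overlapped in AA.

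PPP1R1B differed between the control groups. PPP1R1B was at 7.70, 9.45 and 10.1 TPM in 1 µM PBS, at 24.5, 21.7 and 20.3 TPM in 1 mM PBS, at 22.0, 25.0 and 23.4 TPM in AA and at 35.7, 44.7 and 39.0 TPM in water. The 1 µM controls lay below all other controls and the water controls above them. The 1 µM PBS group also spread widely for ADCY5, with 31.0, 14 and 26.2 TPM, and for ADCY1, with 62.2, 30.1 and 54.9 TPM.

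**Figure D1:**
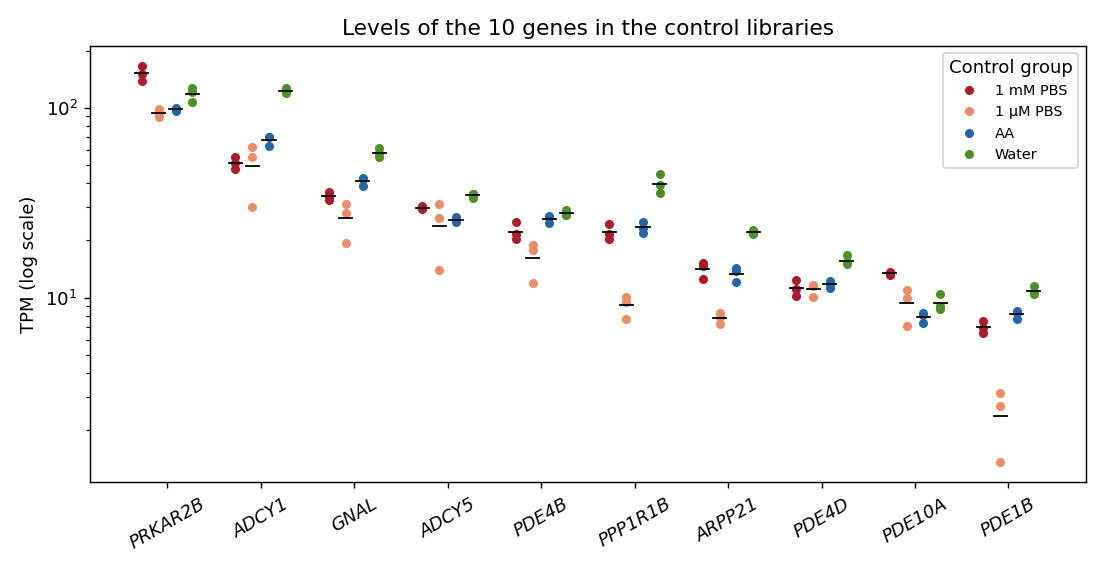
TPM (log scale) of the 10 genes in the 4 control groups, with 1 point per library (n = 3 per group) and a bar at the group mean. PRKAR2B and ADCY1 lie at the top, and PPP1R1B is lowest in 1 µM PBS (7.70 to 10.1 TPM) and highest in water (35.7 to 44.7 TPM).

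The promoters of the genes that fell after acute 1 mM dopamine are shown because cAMP acts on transcription through CREB, which binds the cAMP response element. RefSeq windows (GRCh38.p14, 250 bases before to 50 after a start) were matched by symbol for 9 of the 10 genes, and PPP1R1B had no entry. For each gene the window nearest to the 5′ end given in the files is printed 5′ to 3′, on chr7:45573890-45574189 (plus) for ADCY1, chr3:123449041-123449340 (minus) for ADCY5, chr1:65792260-65792559 (plus) for PDE4B and chr3:35638603-35638902 (plus) for ARPP21. Capitals mark the half-site TGACG or its reverse complement CGTCA, both of which lie inside the full element TGACGTCA.
ADCY1: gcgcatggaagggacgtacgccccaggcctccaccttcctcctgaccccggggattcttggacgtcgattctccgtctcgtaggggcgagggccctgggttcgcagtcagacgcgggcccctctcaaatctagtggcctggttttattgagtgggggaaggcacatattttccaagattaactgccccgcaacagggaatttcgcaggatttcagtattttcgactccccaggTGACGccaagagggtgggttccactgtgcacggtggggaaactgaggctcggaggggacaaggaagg
ADCY5: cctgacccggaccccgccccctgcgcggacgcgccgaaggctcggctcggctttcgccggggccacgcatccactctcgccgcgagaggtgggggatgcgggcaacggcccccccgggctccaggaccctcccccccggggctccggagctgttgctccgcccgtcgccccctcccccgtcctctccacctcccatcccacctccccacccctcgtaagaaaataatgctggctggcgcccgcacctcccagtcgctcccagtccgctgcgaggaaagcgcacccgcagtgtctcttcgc
PDE4B: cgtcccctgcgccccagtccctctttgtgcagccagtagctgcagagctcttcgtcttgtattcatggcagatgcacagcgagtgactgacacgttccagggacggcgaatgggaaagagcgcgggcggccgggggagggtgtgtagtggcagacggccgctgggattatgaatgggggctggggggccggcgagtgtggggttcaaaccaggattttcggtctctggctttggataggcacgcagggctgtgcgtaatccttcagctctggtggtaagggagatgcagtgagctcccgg
ARPP21: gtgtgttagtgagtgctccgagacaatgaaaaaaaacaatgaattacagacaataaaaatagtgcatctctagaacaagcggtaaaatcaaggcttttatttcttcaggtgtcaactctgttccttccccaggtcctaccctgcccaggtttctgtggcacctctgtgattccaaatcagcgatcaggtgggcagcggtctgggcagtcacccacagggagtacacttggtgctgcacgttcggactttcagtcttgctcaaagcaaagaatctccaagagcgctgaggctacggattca
The full element was in 1.85% of all 35116 promoter windows and in no window of these genes. A half-site was in 24.6% of all windows, in both ADCY1 windows, in 1 of 5 windows of GNAL, 1 of 3 of PDE1B and 1 of 8 of PDE4D, and in none of ADCY5, PDE10A, PDE4B, PRKAR2B and ARPP21.

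PPP1R1B was lower after 1 mM dopamine. It was at 14.9, 14 and 12.8 TPM at Acute 1 h, at 11, 12.2 and 14.8 TPM at Acute 24 h, at 15.8, 9.92 and 10.2 TPM at Chronic 1 h and at 18.8, 17.8 and 12.2 TPM at Chronic 24 h. None of these 12 libraries reached the lowest PBS library (20.3 TPM). PPP1R1B fell at Acute 24 h (log2(fold change) -0.91 ± 0.21 SE, adjusted p = 0.0171, edgeR) and at Chronic 1 h (-0.93 ± 0.21, adjusted p = 0.0407). At Acute 1 h its log2(fold change) was -0.61 ± 0.21 (adjusted p = 0.064) and at Chronic 24 h -0.47 ± 0.21 (adjusted p = 0.436), which did not pass. The call at Chronic 1 h was lost when any of 5 of the 6 libraries compared was left out (-1.19 to -0.81) and with the replicate number as a block, and that at Acute 24 h without replicate 1 or 2 of PBS (-1.06 to -0.77).

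In the time course, PPP1R1B was at 15.2, 9.62 and 13.3 TPM at 2 Day, at 17.4, 21.8 and 21.8 TPM at 3 Day, at 15.2, 19.9 and 8.73 TPM at 4 Day, and at 16.9 and 8.06 TPM at 5 Day. All 11 libraries were below the lowest AA library (22.0 TPM), and those of 3 Day were nearest to it. No day passed the test, with log2(fold change) values of -0.77 ± 0.29 at 2 Day (adjusted p = 0.149), -0.11 ± 0.28 at 3 Day, -0.66 ± 0.29 at 4 Day and -0.74 ± 0.34 at 5 Day. Over both experiments, PPP1R1B was by TPM below every control library of the experiment in 23 of 23 libraries given 1 mM dopamine. The same held for 0.133% of the 16505 genes tested in both experiments, and for no other gene of the 10. This count was not made on the scale of the test, where libraries are scaled otherwise. At 3 Day PPP1R1B had a mean of 20.3 TPM against 23.4 TPM in AA, while the fitted change was -7.02%. The dosed groups of an experiment share their control libraries.

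With 1 µM dopamine no direction was seen throughout. PPP1R1B was at 10.4, 2.66 and 10.3 TPM at Acute 1 h, at 4.44, 5.54 and 6.87 TPM at Acute 24 h, at 11.3, 7.57 and 11.7 TPM at Chronic 1 h and at 10.0, 10.8 and 10.2 TPM at Chronic 24 h. Only Acute 24 h lay wholly below PBS, with a log2(fold change) of -0.78 ± 0.33 (adjusted p = 0.241). These libraries held 30 to 355 exon reads of PPP1R1B.

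**Figure D2:**
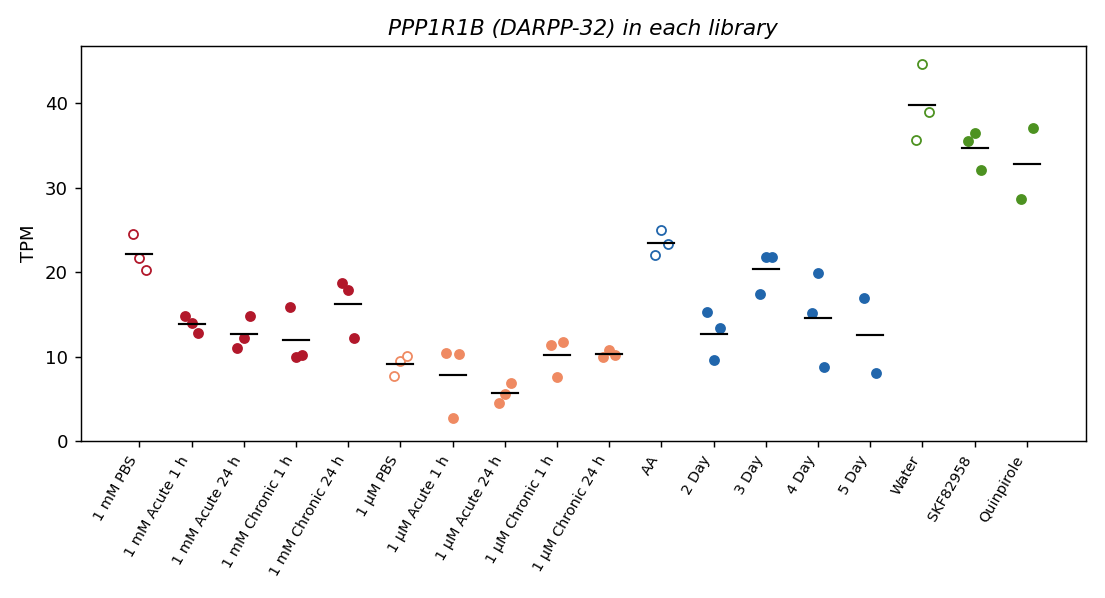
TPM of PPP1R1B in each library of the 18 groups, with open points for control groups, filled points for dosed groups and a bar at the group mean; quinpirole replicate 1 is not drawn. All libraries given 1 mM dopamine lie below the lowest control library of their experiment (20.3 TPM for PBS, 22.0 TPM for AA).

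At 1 mM Acute 1 h, 3 of the 10 genes passed the test, against 16% of the 17804 genes tested. ARPP21 was at 15.2, 12.6 and 14.7 TPM in PBS and at 8.75, 8.86 and 8.35 TPM at Acute 1 h. The groups did not overlap, and ARPP21 fell (log2(fold change) -0.64 ± 0.14, adjusted p = 0.00884). ADCY1 was at 54.8, 47.8 and 51.0 TPM in PBS and fell to 38.8, 39.5 and 36.6 TPM (-0.35 ± 0.09, adjusted p = 0.0211). PDE4D, a cAMP-specific PDE, was at 11.1, 10.1 and 12.3 TPM in PBS and rose to 14.5, 15.4 and 15.8 TPM (0.51 ± 0.14, adjusted p = 0.0296). The calls of ADCY1 (-0.42 to -0.33) and PDE4D (0.42 to 0.58) were lost without any 1 of 5 of the 6 libraries compared, and that of ARPP21 in no such fit (-0.75 to -0.61).

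The other members at 1 mM Acute 1 h did not pass. ADCY5 lay below PBS in every library (25.7, 24.5 and 23.7 against 29.2, 29.5 and 30.2 TPM, log2(fold change) -0.20 ± 0.08, adjusted p = 0.111), and so did PDE4B (17.9, 18.3 and 15.8 against 20.2, 21.5 and 24.9 TPM, -0.30 ± 0.12, adjusted p = 0.108). GNAL (0.13 ± 0.11), PRKAR2B (0.02 ± 0.12) and PDE1B (0.03 ± 0.18) overlapped with PBS. With replicate 1 of 1 mM Acute 24 h left out, 6 of the 10 genes passed at Acute 1 h, PPP1R1B, ADCY5 and PDE4B being added, against 39.8% of 18178 genes. No gene of the 10 was a DEG by the study's rule (a change of 1 or more on the log2 scale and a mean TPM of 1 or more), beside 4.1% of genes.

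At 1 mM Acute 24 h, 4 of the 10 genes fell and none rose, while 15.5% of genes were called and 7.09% fell. Besides PPP1R1B, PDE4B fell most, from 20.2, 21.5 and 24.9 TPM to 16.5, 13.3 and 15.3 TPM (-0.69 ± 0.12, adjusted p = 0.00522). Both cyclases fell, ADCY1 to 36.9, 37.9 and 40.3 TPM (-0.53 ± 0.09, adjusted p = 0.00545) and ADCY5 to 26.7, 22.3 and 24.4 TPM (-0.40 ± 0.08, adjusted p = 0.0111). For these genes no Acute 24 h library overlapped with PBS. PDE10A and PDE4D were high in replicate 1 alone, with 21.4 TPM (10.7 and 11.9 in the other libraries) and 20.4 TPM (12.2 and 11.7). Without it, PDE10A also fell (-0.30, adjusted p = 0.00901) and so did ARPP21 (-0.52, adjusted p = 0.0138), and 6 of the 10 genes passed beside 22.3% of genes. With only the 6 libraries of the groups compared in the fit, none of the 10 passed. Counted on exon and intron reads together, where 43.8% of 26006 genes were called, ADCY1 was at -0.26 (adjusted p = 0.0599) and its call was lost, ADCY5 was at -0.24 (adjusted p = 0.0396), and PDE4D (-0.30, adjusted p = 0.00985) and ARPP21 (-0.70, adjusted p = 0.00106) fell as well.

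Some marker levels also differed at these times, at which 16% and 15.5% of all genes were called. The summed level of 5 cortical glutamatergic markers was 1645 to 1824 TPM in 1 mM PBS, 669 to 841 TPM at Acute 1 h and 740 to 1024 TPM at Acute 24 h, and 3 of the 5 fell at each time. The summed level of the 16 MSN markers was 151 to 170 TPM in PBS, 150 to 156 TPM at Acute 1 h and 161 to 225 TPM at Acute 24 h, and 3 and 2 of the 16 rose and none fell. That of 8 pan-neuronal markers was 3734 to 4296, 3407 to 3731 and 1925 to 3455 TPM, and 2 and 3 of the 8 fell and none rose. Of 8 markers of progenitors and cycling cells, 1 fell at Acute 1 h and none at Acute 24 h, and none rose. Of 7 mesenchymal and fibroblast markers, 1 fell at each time and none rose. Of 6 astrocyte markers, 1 rose and 1 fell at Acute 1 h, and 1 fell at Acute 24 h. The part of the marker changes in the results was not tested.

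After chronic dosing with 1 mM, ARPP21 was the gene with the largest difference from acute dosing. It was at 18.8, 17.7 and 19.4 TPM at Chronic 1 h, above every PBS library and above every Acute 1 h library. Against Acute 1 h ARPP21 was higher by a log2(fold change) of 1.00 ± 0.14 (adjusted p = 0.000845), the only one of the 10 genes called, while 11.3% of 17804 genes were called. Against PBS it was at 0.35 ± 0.14 (adjusted p = 0.212). Cortical glutamatergic markers were also higher than at Acute 1 h, with 3 of the 5 called, a median log2(fold change) of 0.99 and a summed level of 1414 to 1717 TPM, and 3 of the 16 MSN markers were lower. Their part in the ARPP21 result was not tested. The call of ARPP21 held in every fit that left out 1 library, from 0.97 to 1.04. With replicate 1 of 1 mM Acute 24 h left out, ADCY1 (0.31, adjusted p = 0.00246), PDE4D (-0.41, adjusted p = 0.00258) and PRKAR2B (-0.25, adjusted p = 0.0107) were called as well, beside 34% of genes. At 1 µM the values lay in the same order, with 7.22, 7.91 and 8.30 TPM in PBS, 6.69, 6.98 and 6.26 TPM at Acute 1 h and 8.23, 9.71 and 8.99 TPM at Chronic 1 h. The 1 µM difference of Chronic from Acute 1 h was 0.46 ± 0.22 (adjusted p = 0.373), which did not pass. In the time course ARPP21 overlapped with AA on every day. At 5 Day, with the same dosing as 1 mM Chronic 1 h, it was at 0.09 ± 0.19 (adjusted p = 0.867, mean 12.8 against 13.4 TPM).

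At 1 mM Chronic 1 h, 1 of the 10 genes passed, PPP1R1B, against 2.08% of genes, and at Chronic 24 h 0 of 10, against 0.663%. ADCY1 stood at 49.6, 49.5 and 52.4 TPM at Chronic 1 h, which overlapped with PBS, and its difference from Acute 1 h was 0.29 ± 0.09 (adjusted p = 0.0585). PDE4D was at 12.5, 10.9 and 13.4 TPM, with a difference from Acute 1 h of -0.42 ± 0.14 (adjusted p = 0.0761). PRKAR2B was below PBS, at 130, 127 and 138 against 151, 139 and 166 TPM (-0.25 ± 0.12, adjusted p = 0.304). Without replicate 1 of 1 mM Acute 24 h, PRKAR2B (-0.25, adjusted p = 0.0182) and ARPP21 (0.35, adjusted p = 0.0465) were called at Chronic 1 h beside 18.4% of genes.

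**Figure D3:**
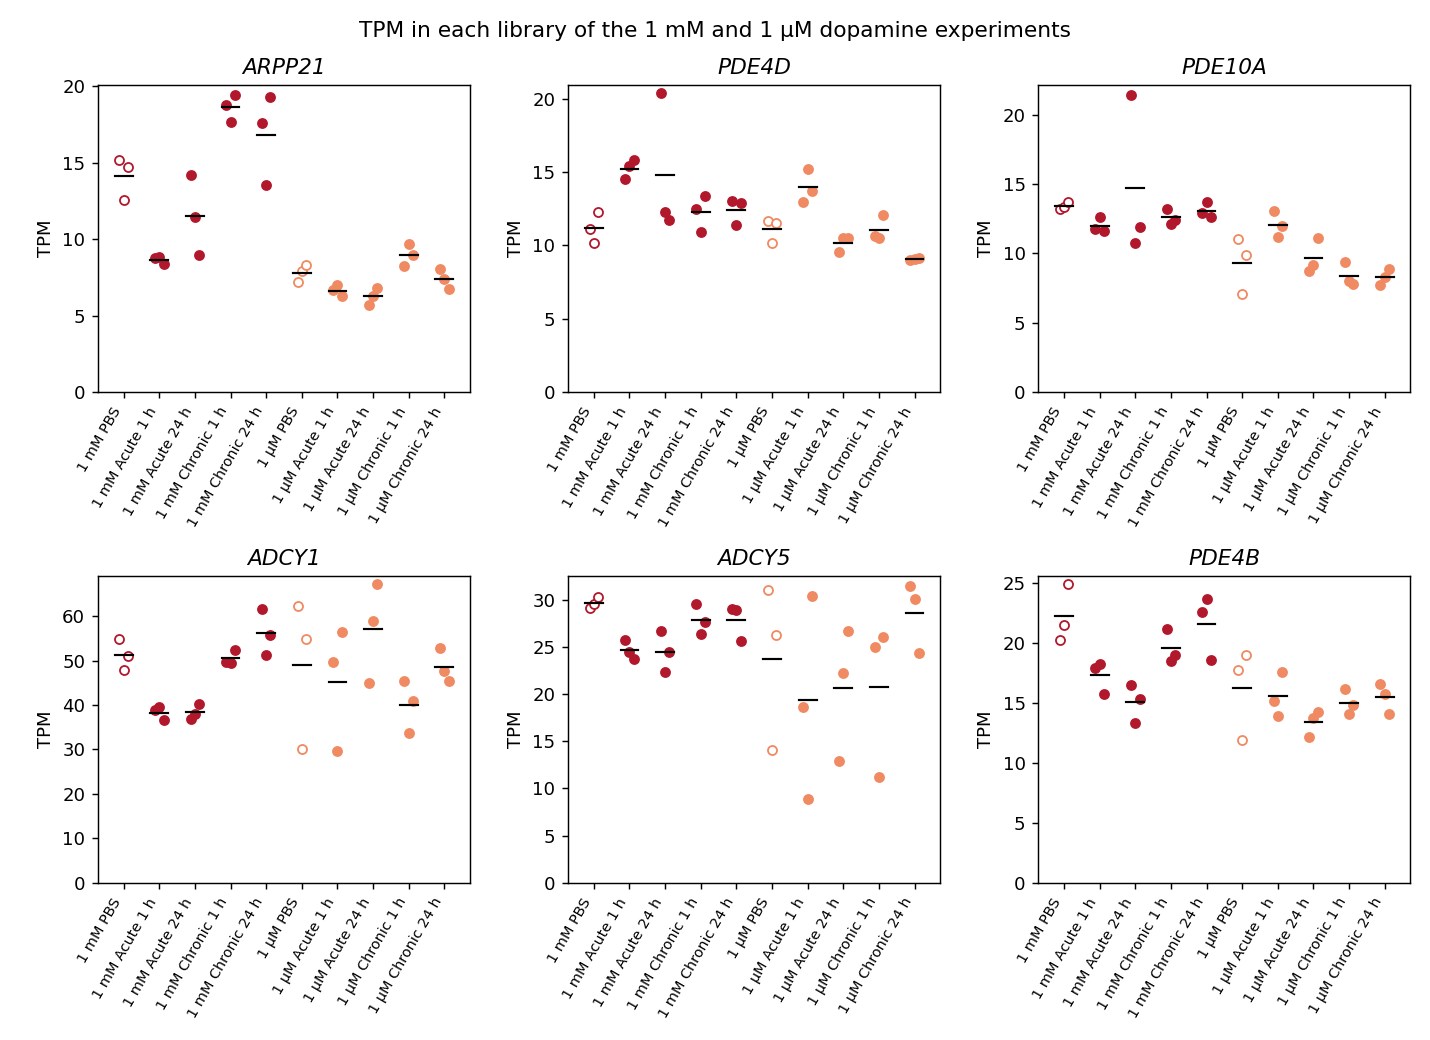
TPM of ARPP21, PDE4D, PDE10A, ADCY1, ADCY5 and PDE4B in each library of the 1 mM (red) and 1 µM (orange) dopamine experiments, with open points for PBS and a bar at the group mean. ARPP21 lies below PBS at 1 mM Acute 1 h (8.35 to 8.86 TPM) and above it at 1 mM Chronic 1 h (17.7 to 19.4 TPM), and 1 library of 1 mM Acute 24 h is high for PDE4D and PDE10A.

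At 1 µM none of the 10 genes passed the test at Acute 1 h (5.77% of 16541 genes called), Acute 24 h (3.31%), Chronic 1 h (2.58%) or Chronic 24 h (0%, with 608 at an unadjusted p under 0.05). An unadjusted p under 0.05 was seen in 2 of the 10 at Acute 1 h, PDE10A and PDE4D, beside 20.3% of all genes, and in 2 of the 10 at Acute 24 h, PPP1R1B and PDE4B, beside 16.8%, so the share in the 10 genes was near that of all genes. PDE10A was at 11, 7.08 and 9.89 TPM in PBS and at 13.1, 11.2 and 12 TPM at Acute 1 h (0.41 ± 0.15, adjusted p = 0.117). PDE4D was at 11.7, 10.1 and 11.5 TPM in PBS and at 12.9, 15.2 and 13.7 TPM at Acute 1 h (0.36 ± 0.17, adjusted p = 0.233). By TPM neither gene overlapped with PBS, and the share of all genes without overlap was not counted. For Chronic 1 h against Acute 1 h at 1 µM, 0 of 10 passed beside 1.2% of genes, with PDE10A at -0.49 ± 0.15 (adjusted p = 0.126).

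The doses were compared by an interaction term at Acute 1 h. None of the 10 genes differed between 1 mM and 1 µM, beside 2.01% of the 18390 genes tested. The smallest adjusted p was that of PDE10A (difference of log2(fold change) -0.48 ± 0.21, adjusted p = 0.258), which lay below PBS at 1 mM (11.7, 12.6 and 11.6 against 13.2, 13.3 and 13.7 TPM) and above PBS at 1 µM. The log2(fold change) of PDE10A at 1 mM was -0.10 ± 0.15 (adjusted p = 0.714). The standard errors of the interaction ran from 0.19 for GNAL to 0.40 for PPP1R1B.

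In the time course, 1 of the 10 genes passed, ADCY1 at 4 Day (4.38% of 16768 genes called). ADCY1 was at 70.4, 70.4 and 63.3 TPM in AA and at 82.5, 91.6 and 85.8 TPM at 4 Day (0.38 ± 0.09, adjusted p = 0.0218). The call was lost without any of 5 of the 6 libraries compared, from 0.33 to 0.43. ADCY5 at 4 Day was at 30.1, 31.5 and 32.7 TPM against 26.6, 25.6 and 25.0 TPM in AA (0.32 ± 0.10, adjusted p = 0.0782). None passed at 2 Day (3.88% of genes called), 3 Day (7.37%) or 5 Day (1.63%). PDE4D was above AA in every library at 3 Day (0.33 ± 0.10, adjusted p = 0.0667), 4 Day (0.19 ± 0.10) and 5 Day (0.38 ± 0.12, adjusted p = 0.117), with 12.7 to 15.3 TPM against 11.2 to 12.2 TPM. Counted on exon and intron reads together, PDE4D was at 0.17 at 3 Day (adjusted p = 0.498, edgeR), 0.08 at 4 Day (0.856) and 0.27 at 5 Day (0.326). The share of all genes above AA in every library was not counted. Markers of other cell types moved in the dosed libraries of the time course. Of 7 mesenchymal and fibroblast markers 2, 4, 2 and 2 rose at 2, 3, 4 and 5 Day and none fell (median log2(fold change) 0.51 to 0.68), and their summed level was 182 to 239 TPM in AA and 337 to 371 TPM at 4 Day. At 3 Day 3 of 6 astrocyte markers rose, and 4 of 8 markers of progenitors and cycling cells fell and 1 rose. Their part in these results was not tested.

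**Figure D4:**
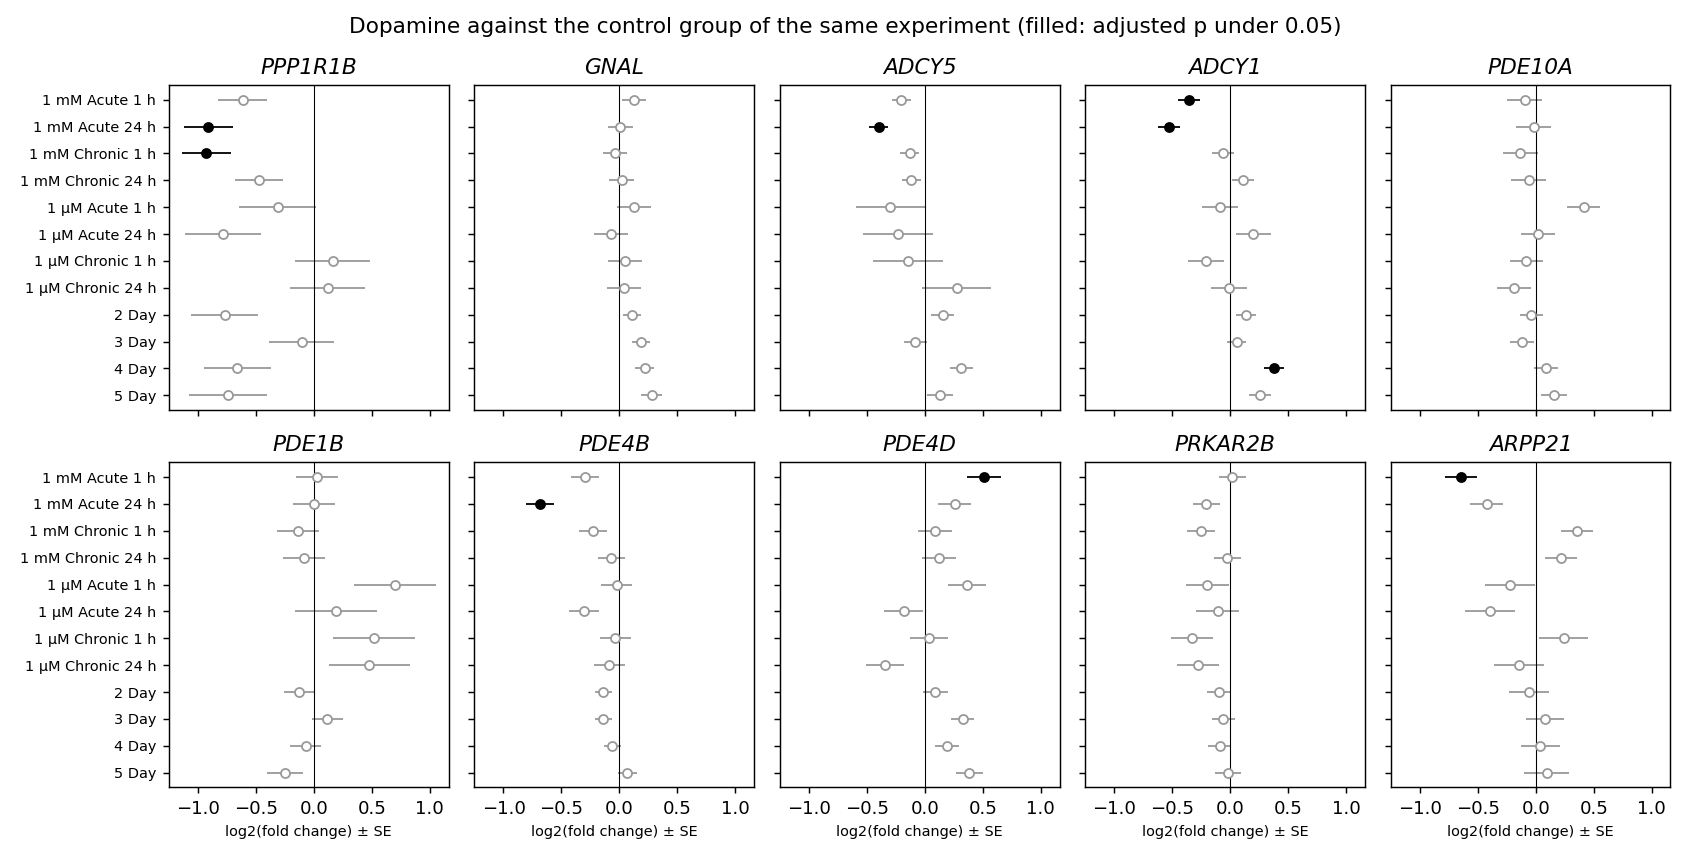
log2(fold change) ± SE of each gene against the control group of its experiment (PBS or AA), from edgeR, with filled points where the adjusted p was under 0.05. PPP1R1B is left of 0 in all 1 mM and time course comparisons, and ARPP21 changes sides between 1 mM Acute 1 h (-0.64) and Chronic 1 h (0.35).

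No gene of the 10 passed with an agonist. With SKF82958, PPP1R1B was at 35.5, 36.5 and 32.1 TPM against 35.7, 44.7 and 39.0 TPM in water, with overlap (-0.28 ± 0.21). With quinpirole it was at 28.6 and 37.0 TPM in replicates 2 and 3, beside 0 exon reads in replicate 1 (-0.31 ± 0.23). Of 16132 genes, 0.0124% were called with SKF82958 and 0% with quinpirole (185 and 350 at an unadjusted p under 0.05). Without replicate 1 of quinpirole, 0 of the 10 genes passed in either comparison, beside 0.624% of 16343 genes with SKF82958 and 0.184% with quinpirole. The summed level of the immediate early genes was 1192 to 1399 TPM in water, beside 170 to 183 TPM in AA, and its part in these results was not tested. Without that library, PPP1R1B was at -0.28 ± 0.09 with SKF82958 (adjusted p = 0.339) and at -0.24 ± 0.11 with quinpirole (adjusted p = 0.71).

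Reads in introns also differed. In 1 mM PBS the share of a gene's reads in introns was 7.07% to 7.66% in ADCY1 and 62.0% to 69.3% in PDE4D, the longest of the genes with 1553 kb. At 1 mM Acute 1 h all 10 genes had a lower share than in any PBS library, and the same held for all 10 at Acute 24 h. The same count was not made over all genes, so it is no result about the 10 genes. PDE4D went to 31.4%, 41.0% and 39.4%, PDE4B from 39.9%, 42.4% and 38.5% to 18.8%, 24.1% and 24.2%, and PRKAR2B from 13.9%, 14.1% and 10.8% to 4.10%, 5.78% and 5.23%. Over all genes the share went from 19.5% to 21.8% in PBS to 12.3% to 13.2% at Acute 1 h, so it was lower in these genes and in all genes together. At Chronic 1 h the shares of 8 of the 10 overlapped with PBS. Counted on exon and intron reads together, where 47.2% of 26006 genes were called, PDE4D was not higher at Acute 1 h (-0.033, adjusted p = 0.764), and ADCY1 was not called, whereas ARPP21 fell (-0.67, adjusted p = 0.000578). GNAL rose (0.26, adjusted p = 0.0390) and PDE4B fell (-0.35, adjusted p = 0.0304) on these reads, so that 3 of the 10 genes were called again, but only ARPP21 by both counts. On intron reads alone ARPP21 was not called at Acute 1 h (-0.19, adjusted p = 0.467).

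**Figure D5:**
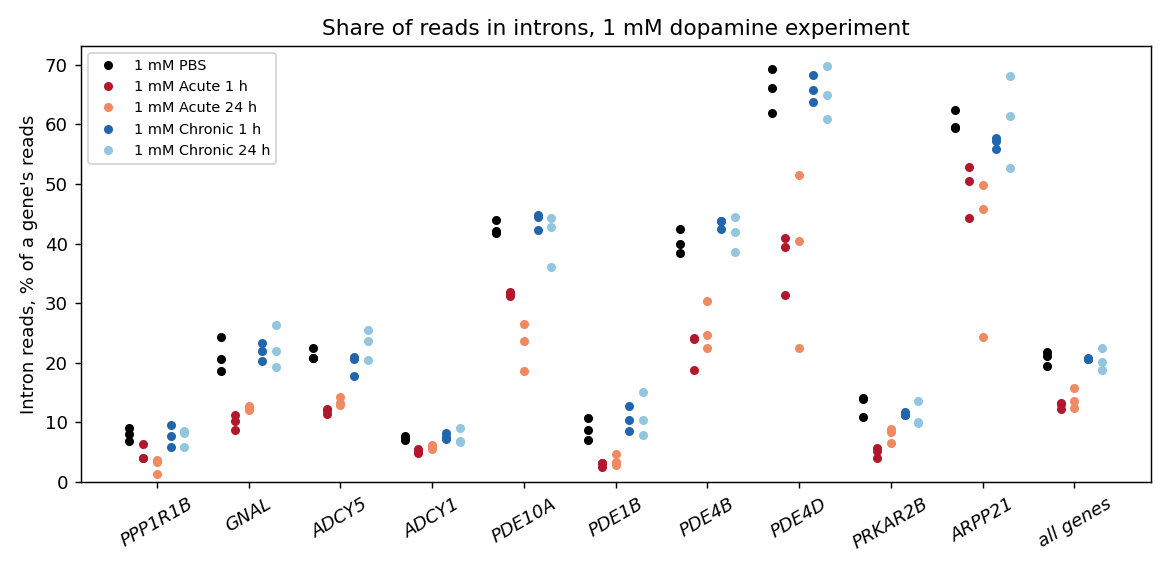
Share of reads in introns (% of a gene's reads) of the 10 genes and of all genes together in each library of the 1 mM experiment, by group. Acute 1 h and Acute 24 h lie below PBS for every gene, as they do for all genes together, and PDE4D falls from 62.0-69.3% to 31.4-41.0% at Acute 1 h.

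The other genes of the pathway were taken from 6 lists with 71 genes. At 1 mM Acute 1 h 17 of 70 tested were called (6 higher, 11 lower) beside 16% of all genes (8.04% higher, 7.94% lower), with a median log2(fold change) of -0.05 beside 0.01 over all genes. Of the other PDEs 5 of 13 fell and none rose. PDE1A, a calmodulin-dependent PDE, went from 50.9, 47.4 and 52.7 TPM to 23, 27.0 and 21.3 TPM (-1.02 ± 0.13, adjusted p = 0.000341) and stood at 63.6, 61.5 and 59.2 TPM at Chronic 1 h (1.26 ± 0.13 against Acute 1 h, adjusted p = 0.000156). RAPGEF3, a cAMP-activated exchange factor, fell by 0.93 on the log2 scale at Acute 1 h. Of the PKA subunits, inhibitors and anchors, 5 of 15 rose and 2 fell.

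At 1 mM Acute 24 h 14 of 70 pathway genes were called (2 higher, 12 lower) beside 15.5% of all genes (7.09% lower), among them ADCY7 (-1.27 ± 0.37, adjusted p = 0.0367) and again PDE1A (-1.05 ± 0.13, adjusted p = 0.000958). At Chronic 1 h 1 of 70 was called beside 2.08% of all genes, PPP1CC, a catalytic subunit of protein phosphatase 1, the target of DARPP-32, from 113, 112 and 110 TPM to 80.5, 73.0 and 74.7 TPM (-0.60 ± 0.08, adjusted p = 0.00296). PPP1CC also fell at 1 µM Acute 1 h (-0.65 ± 0.15, adjusted p = 0.0178), where 4 of 68 genes were called beside 5.77% of all genes, a share near the background. There the cyclase ADCY2 rose from 11, 7.50 and 10.4 TPM to 20.6, 13.8 and 20.6 TPM (0.94 ± 0.14, adjusted p = 0.00108), and PDE8A rose by a log2(fold change) of 1.10 ± 0.27 (adjusted p = 0.0288). At 1 mM Acute 1 h ADCY2 was at 13.2, 12.4 and 13 TPM, in the range of its PBS libraries (8.98 to 13.5 TPM). PPP1R1A, an inhibitor of protein phosphatase 1 that overlaps PDE1B on the opposite strand, rose at 2 Day (0.59 ± 0.09), 4 Day (0.44 ± 0.09) and 5 Day (0.52 ± 0.10).

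The genes most like PPP1R1B over 52 libraries, without replicate 1 of quinpirole and with each experiment centred on its mean, were NXPH4 (Pearson r = 0.777), FOXO6 (0.718), EFNA3 (0.697), NKAIN1 (0.690) and CHGA (0.677). For PDE10A they were DMXL2 (0.880), USP24 (0.863), WDFY3 (0.857), FER (0.853) and ATP8A1 (0.846), and for ADCY5 TNPO2 (0.953), NRXN2 (0.947), APBB1 (0.945), TMEM59L (0.942) and USP11 (0.942). These values describe libraries that share control groups within an experiment and that differ in depth. With the 53rd library included, NXPH4 was again first for PPP1R1B (0.953), while the first for PDE10A was ATG2B (0.824) and for ADCY5 SBF1 (0.991).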

How the data were processed

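RNA-seq of hMSN-like cells from 53 libraries was analysed, and the 5 Day replicate 1 was not analysed here. The authors trimmed and mapped reads in CLC Genomics Workbench to GRCh38 (hg38 in the submitters' processing notes) and deposited 1 table per library. The deposited counts (total exon reads, intron reads and their sum) were not normalized. The TPM values deposited by the authors are exon reads per exon length, scaled within each library. Strand is not given in the sources used here, so reads of overlapping genes are uncertain (GNAL with CHMP1B and MPPE1, PDE1B with PPP1R1A). Which of the named sequencing providers ran which library is not given either, so no batch was modelled.

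Exon read counts were tested with edgeR 4.0.16 (filterByExpr with minimum count 10 and minimum total 15, TMM, glmQLFit, glmQLFTest, two-sided) in R 4.3.3, in 1 fit per experiment and 1 fit of both doses for the interaction, with Benjamini-Hochberg adjustment over all genes tested and a threshold of 0.05. Each SE was taken as |log2(fold change)| over the square root of the F statistic. The test was checked on simulated data with 4-fold changes, after smaller changes had often been missed at this group size. No fitted change of the 10 genes exceeded 1.998-fold (ARPP21), so this check does not show how often changes of their size are found. Groups came from the sample labels. Depth limits precision through the exon reads per library, and a floor of 3 exon reads covers counting error only. Alternatives were total gene reads, DESeq2 1.42.0 size factors and Wald test, no filter, only the groups compared, the replicate number as a block and each library left out. Intron reads and the fits without replicate 1 of quinpirole for SKF82958 and for the most alike genes were added after seeing the data. The genes named are all 10 members, in each comparison at most 3 called pathway genes with the largest change, and the 5 genes most alike to PPP1R1B, PDE10A and ADCY5 (log2(TPM + 0.5), mean TPM of at least 1). A pathway gene that this rule would name is not reported here. Members and lists were chosen with earlier results of these data known. Tables and figures used Python 3.11.15, numpy 2.4.6, pandas 2.3.3 and matplotlib 3.10.9.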

Additional observations from a re-analysis of the deposited data

Results flagged for a closer look

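ARPP21 was set apart because its effects under acute and chronic 1 mM dopamine differed by a test of the difference itself. Its log2(fold change) against PBS was -0.64 at Acute 1 h and 0.35 at Chronic 1 h, and the difference was 1.00 (adjusted p = 0.000845, edgeR). Cortical glutamatergic markers were also higher at Chronic 1 h than at Acute 1 h (3 of 5 called, median log2(fold change) 0.99), and their part in this result was not tested. Culture age (DIV45 and DIV50) cannot be told apart from the dosing. At 5 Day of the time course, with the same dosing as Chronic 1 h, ARPP21 overlapped with AA (0.09 ± 0.19).

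PDE10A was set apart because by TPM every library lay below PBS at 1 mM Acute 1 h and above PBS at 1 µM Acute 1 h. By TPM 6 of the 10 genes lay wholly below PBS at 1 mM Acute 1 h, and 2 of the 10 wholly above at 1 µM. These counts were not made over all genes, so the pattern is no result about PDE10A. The log2(fold change) was -0.10 ± 0.15 at 1 mM (adjusted p = 0.714, edgeR) and 0.41 ± 0.15 at 1 µM (adjusted p = 0.117), and neither passed. The interaction test of this difference did not pass (adjusted p = 0.258).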

How the results depend on the processing

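The counts below are of the 10 genes that passed the test, given beside the count reported. With DESeq2's size factors all 17 counts stayed within 1.5 times. With DESeq2's Wald test 5 in place of 3 genes were called at 1 mM Acute 1 h, 2 in place of 1 for 1 mM Chronic 1 h against Acute 1 h and 1 in place of 0 for the same comparison at 1 µM. With total gene reads 1 in place of 0 was called at 1 µM Acute 1 h, 1 in place of 0 for Chronic against Acute 1 h at 1 µM, 4 in place of 1 for that comparison at 1 mM and 1 in place of 0 for the difference between doses. PDE4D at 1 mM Acute 1 h then was at -0.033 in place of 0.51. With intron reads, added after seeing the data, 0 in place of 1 were called at 1 mM Chronic 1 h, for Chronic against Acute 1 h at 1 mM and at 4 Day, 2 in place of 0 at 1 µM Acute 1 h and for the difference between doses, and 1 in place of 0 at 1 µM Acute 24 h, 1 µM Chronic 1 h and 3 Day. There ADCY1 was at 0.18 at 1 mM Acute 1 h and 0.088 at Acute 24 h, and PDE4D at -0.079 at Acute 1 h, all of the opposite sign to exon reads. On intron reads both ARPP21 calls were lost, at -0.19 at 1 mM Acute 1 h (adjusted p = 0.467) and 0.35 for Chronic against Acute 1 h (adjusted p = 0.205). Without the filter on low counts 1 in place of 0 was called at 2 Day and at 3 Day, 3 in place of 1 at 4 Day and 2 in place of 0 at 5 Day. With only the groups compared in the fit 6 in place of 3 were called at 1 mM Acute 1 h, 0 in place of 4 at Acute 24 h, 3 in place of 1 at Chronic 1 h, 4 in place of 1 for Chronic against Acute 1 h, 1 in place of 0 at 2 Day and at 3 Day, and 4 in place of 1 at 4 Day. The cause of these shifts was not tested.

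Leaving out each library in turn gave counts of 1 to 6 at 1 mM Acute 1 h, 0 to 3 at 1 mM Chronic 1 h, 1 to 4 for Chronic against Acute 1 h at 1 mM, and 0 to 1 at 3 Day (1 without its replicate 1), 4 Day (0 without 5 of the libraries compared) and 5 Day (1 without either of its libraries). The highest counts at 1 mM came without replicate 1 of Acute 24 h. Libraries with the same replicate number did not deviate together on average (mean correlation of deviations 0.002 at 1 mM, 0.023 at 1 µM, -0.01 in the time course and -0.025 with agonists). Single pairs ran from -0.301 to 0.446 at 1 µM and from -0.192 to 0.14 at 1 mM. With the replicate number as a block, 0 in place of 1 was called at 1 mM Chronic 1 h (PPP1R1B was lost), and the other 16 counts stayed within 1.5 times. By exon CPM in place of TPM, 6 of the 10 genes changed rank in the controls, since CPM is not per length. With 3 libraries a group, small changes cannot be resolved, least in 1 µM libraries, where PPP1R1B and PDE1B had few reads.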
